A study of Mus musculus with 12 samples.

Results

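Socs1, Socs2, Socs3, Cish, Pim1 and Pim2 are 6 of the 33696 genes counted in the files. They were chosen as the feedback and survival genes that cytokine-activated STAT factors induce, with the KO and WT levels of these same libraries in view, so the KO to WT differences below and the contrast of the splenic with the thymic difference are descriptions and carry no test. The study sorted splenic γδ T cells (CD3+ CD4-), thymic γδ T cells and a pool of the thymic double negative stages DN1, DN2 and DN3 from adult mice, either wild type (WT) or carrying a germline GFI1 knockout (KO), all on the C57BL6/J background. GFI1 is a zinc finger transcriptional repressor. WT cells were tagged with the hashtag antibody B0302 and KO cells with B0303, pooled before sorting and run together on 10x 3′ single-cell libraries, and 2 pools were made for each of the 3 compartments. Each pool was split by hashtag into a WT and a KO library, which gives 12 libraries, 2 per genotype and compartment. Thymic γδ T cells and DN1-DN3 cells came from the same mice. How many mice stood behind a pool is not given in the sources used here, so the spread between libraries may be partly technical.

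Cytokine receptors without an enzyme of their own signal through bound Janus kinases (JAK), which phosphorylate STAT transcription factors. STAT dimers then switch on genes that include their own brakes. CIS, the product of Cish, and SOCS1, SOCS2 and SOCS3 bind receptors or JAKs and use a SOCS box to recruit an elongin and cullin ubiquitin ligase, whereas PIM1 and PIM2 are serine/threonine kinases, active once made, that support survival and growth. In lymphocytes Cish and Socs2 are known as targets of STAT5, downstream of IL-2, IL-7 and IL-15, and Socs3 is known as a target of STAT3 and a brake on receptors that use gp130, the product of Il6st.

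The STAT binding element most often given for STAT5 and STAT3 is TTCNNNGAA, and stretches are shown here for Cish and Socs3 because their windows held it. RefSeq promoter windows (assembly GRCm38.p6, 250 bases before to 50 bases after the start) were found for 5 of the 6 genes, with 2 windows for Pim1. Of all 32851 windows, 8.30% held TTCNNNGAA on either strand and 0.457% held it at least 2 times. The Cish window held it 2 times, at bases 1 to 9 and 12 to 20 counted from the start, and the Socs3 window held it 1 time, at bases −154 to −146. The other windows held none. The form with 1 more base at its centre was in 6.95% of all windows and in none of these, and AATCAC, the core of a GFI1 recognition sequence, was in 10.4% of all windows and in 1 of these, the downstream Pim1 window, at bases −61 to −56. The searches covered both strands and no 2 of the matches overlapped. These matches describe letters and not binding. The stretches are printed 5′ to 3′ along the gene, with TTCNNNGAA matches in capitals, for Cish at chr9:107296559-107296678 on the plus strand and for Socs3 at chr11:117969457-117969556 on the minus strand.
Cish: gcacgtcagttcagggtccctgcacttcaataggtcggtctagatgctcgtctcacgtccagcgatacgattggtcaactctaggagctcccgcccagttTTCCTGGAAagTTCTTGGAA
Socs3: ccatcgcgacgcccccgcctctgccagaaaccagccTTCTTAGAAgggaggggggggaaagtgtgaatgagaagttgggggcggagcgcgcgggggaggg

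The 12 libraries held 96911 cells after filtering, between 6795 and 11679 each, and between 42091895 and 71663962 UMIs each. Levels are given as CPM, a gene's UMIs over the UMIs of the library, scaled to 1000000. Gfi1 (ENSMUSG00000029275) did not fall in KO, with 18.1 and 18.1 CPM in KO against 11.8 and 18 CPM in WT spleen, and it was higher in thymic γδ T cells labelled KO (log2 difference 0.62 ± 0.20 SE, edgeR quasi-likelihood adjusted p = 0.025). Whether the counted 3′ end lies in the deleted part is not given in the sources used here, so genotype rests on the labels. Trdc was at 1233 to 2051 CPM in the γδ T libraries and at 126 to 199 CPM in the DN1-DN3 libraries. Cells with γδ T17 markers took up most of the γδ T libraries labelled KO. Trgv6, the variable gene of Vγ6 receptors, led the Trgv UMIs of 66.0% and 57.7% of cells with a call in KO spleen. In WT spleen it led those of 4.31% and 3.44%. A call was made for 5183 of 7815 and 7992 of 11679 KO splenic cells. The paper holds that 3′ libraries capture variable regions poorly, and placed almost all KO splenic γδ T cells in Vγ6 clusters. Trgv2 led 3552 of 4010 calls in WT DN1-DN3 library 1, so a call for another Trgv gene is not read as that receptor. A list of 5 γδ T17 markers, among them Maf, Blk, Cxcr6 and Scart1, led 97.7% and 98.6% of cells in KO spleen, 73.6% and 85.1% in KO thymic γδ T cells and 25.9% and 10.5% in KO DN1-DN3 cells, against 10.9% and 7.82%, 7.28% and 6.93%, and 1.03% and 1.06% in WT. Fewer cells of a type and less RNA per cell cannot be told apart in sums over a library, and the part of this make-up in each sum below was not tested. B cell markers, among them Cd79a, Cd79b, Ms4a1 and Ighm, summed to 219 to 441 CPM in WT spleen and 61.9 to 119 CPM in KO spleen, mostly Ighm and Cd79b, with Cd79a at 1.52 CPM or less. Within that list Ighm went from 195 to 411 CPM in WT to 10.5 to 67.6 CPM in KO spleen, while Cd79b stood higher in KO, at 50.8 to 50.9 CPM against 23.7 to 27.9 CPM. A myeloid list summed to 102 to 116 CPM in WT spleen and 315 to 339 CPM in KO spleen, with Csf1r at 0.499 CPM or less in all 12 libraries. The higher sum was that of Cst3, at 90.7 to 102 CPM in WT and 312 to 337 CPM in KO spleen, while Tyrobp was lower in KO, at 1.14 to 1.60 CPM against 9.78 to 10.1 CPM.

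The first question was how the 6 genes stood in KO and WT cells of each compartment. In the spleen Socs1, Socs2, Cish and Pim1 were higher in both libraries labelled KO, and Socs3 and Pim2 were lower in both. In thymic γδ T cells all 6 were higher in KO, so that Socs3 and Pim2 stood in opposite directions in the 2 tissues. Among DN1-DN3 cells Socs1, Socs2, Cish and Pim2 were higher in both KO libraries, Pim1 and Socs3 lower by at most 0.31 on the log2 scale. In no compartment did the WT and KO values of any of the 6 genes overlap. The genes were chosen on these contrasts, so the values describe their size only, and nothing is read from the absence of overlap. The share of all genes without such overlap is not given here, and an exact two-sided test of 2 against 2 cannot go below 0.33. By another measure, the fit called 28.6% of 14921 genes higher and 26.1% lower in spleen. It called 26.1% and 23.7% in thymic γδ T cells, and 15.2% and 7.73% in DN1-DN3 cells.

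**Figure D1:**
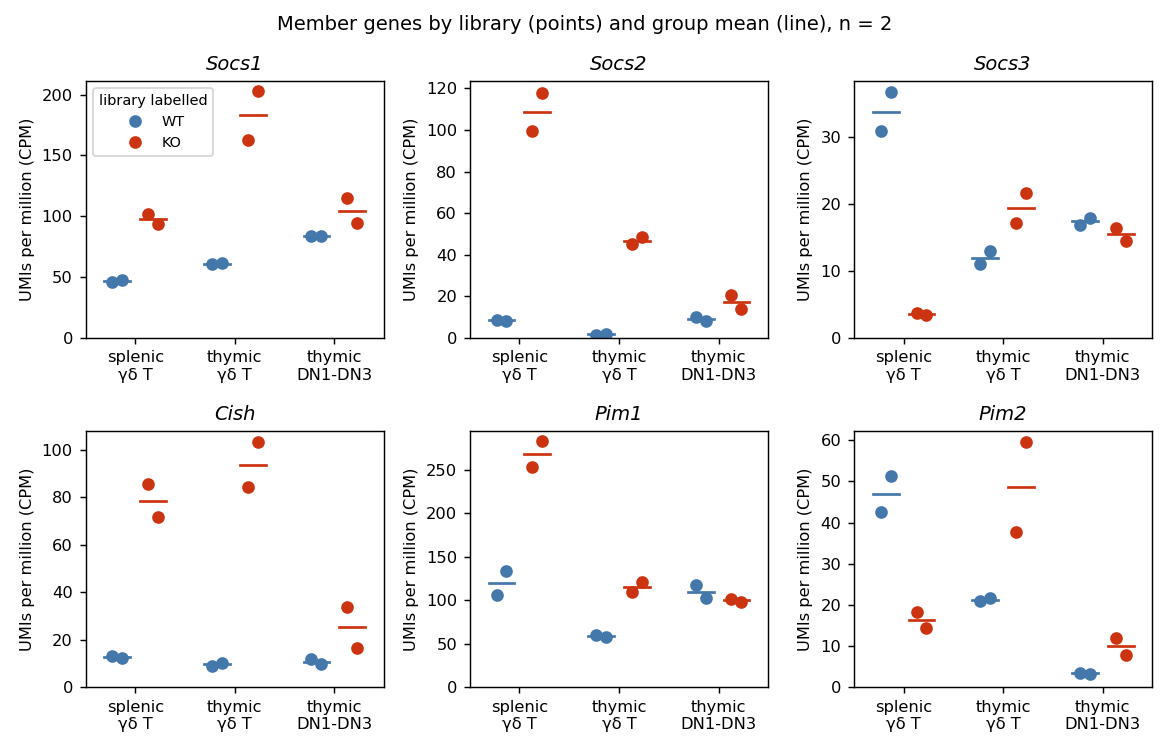
CPM of the 6 genes in each of the 12 libraries, by compartment, with WT in blue and KO in red. Points are libraries and lines are means of 2. Socs3 and Pim2 sit lower in KO than in WT in spleen and higher in thymic γδ T cells, whereas Socs2 and Cish sit higher in KO in all 3 compartments.

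Cish (ENSMUSG00000032578), the SOCS family gene with the pair of TTCNNNGAA matches at its start, stood at 12.6 ± 0.603 CPM in WT spleen (SD, n = 2), 9.72 ± 0.761 CPM in WT thymic γδ T cells and 10.8 ± 1.60 CPM in WT DN1-DN3 cells. The KO libraries were at 85.4 and 71.7 CPM in spleen, 84.2 and 103 CPM in thymic γδ T cells, and 33.8 and 16.6 CPM in DN1-DN3 cells. All 6 KO values lay above all 6 WT values. The fitted differences were 6.65-fold in spleen (log2 2.73 ± 0.27 SE), 10.5-fold in thymic γδ T cells (log2 3.40 ± 0.27) and 2.30-fold in DN1-DN3 cells (log2 1.20 ± 0.26). The DN1-DN3 value rested more on KO library 1, and was 0.66 on the log2 scale without it. A Cish UMI was seen in 5.78% ± 0.291 of WT and 32.1% ± 2.29 of KO splenic cells, and in 2.53% and 14.1% once each cell was thinned to 2000 UMIs. No sorted type in these libraries is known to lack the 6 genes, so no background share can be set beside these shares.

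Socs2 (ENSMUSG00000020027), a brake on growth hormone and STAT5 signals, showed the widest range as a ratio, from 1.44 to 118 CPM. WT libraries held 8.62 and 8.22 CPM in spleen, 1.44 and 2.01 CPM in thymic γδ T cells and 10.2 and 8.14 CPM in DN1-DN3 cells. KO libraries held 99.5 and 118 CPM in spleen, 45.1 and 48.5 CPM in thymic γδ T cells and 20.8 and 13.7 CPM in DN1-DN3 cells. Every KO library was thus above every WT library. The fitted differences were 13.8-fold in spleen (log2 3.78 ± 0.19 SE), 29.3-fold in thymic γδ T cells (log2 4.87 ± 0.21) and 1.87-fold in DN1-DN3 cells (log2 0.90 ± 0.18). The thymic fold stood on 85 and 144 Socs2 UMIs in the WT libraries. In spleen 43.1% ± 3.58 of KO cells and 3.43% ± 0.00295 of WT cells held a Socs2 UMI (19.5% and 1.55% after thinning).

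Socs1 (ENSMUSG00000038037), which blocks JAK catalysis downstream of interferon and common γ chain cytokines, was more evenly expressed. In spleen it stood at 46.0 and 47.3 CPM in WT and 102 and 93.6 CPM in KO, a 2.24-fold difference (log2 1.16 ± 0.13 SE). In thymic γδ T cells it stood at 60.4 and 61.7 CPM in WT and 162 and 203 CPM in KO, a 3.27-fold difference (log2 1.71 ± 0.13). DN1-DN3 cells held 84.1 and 83.3 CPM in WT and 115 and 94.1 CPM in KO, a difference of 1.24-fold (log2 0.31 ± 0.13). KO thymic γδ T cells were the highest of the 6 groups, and the KO DN1-DN3 and KO splenic libraries overlapped below them.

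Socs3 (ENSMUSG00000053113), the brake on gp130 receptors, went the other way in spleen. WT splenic libraries held 30.9 and 36.7 CPM and KO splenic libraries 3.65 and 3.37 CPM, which is 9.04-fold lower in KO (log2 −3.18 ± 0.17 SE) and rests on 171 and 234 UMIs in the KO libraries. Thymic γδ T cells held 11.1 and 12.9 CPM in WT and 17.1 and 21.7 CPM in KO, 1.77-fold higher in KO (log2 0.82 ± 0.15). DN1-DN3 cells held 16.9 and 17.9 CPM in WT and 16.4 and 14.5 CPM in KO (log2 −0.18 ± 0.15). WT spleen was thus the highest and KO spleen the lowest of the 6 groups, and the KO thymic γδ T and WT DN1-DN3 libraries between them overlapped. The share of splenic cells with a Socs3 UMI was 14.8% ± 1.23 in WT and 1.62% ± 0.0315 in KO (6.79% and 0.647% after thinning).

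Of the kinases, Pim1 (ENSMUSG00000024014) was higher in KO in both γδ T compartments by a similar amount. It stood at 107 and 133 CPM in WT spleen and 253 and 284 CPM in KO spleen (2.39-fold, log2 1.26 ± 0.12 SE). Thymic γδ T cells held 59.7 and 57.7 CPM in WT and 109 and 122 CPM in KO (2.15-fold, log2 1.10 ± 0.12). DN1-DN3 cells held 117 and 102 CPM in WT and 102 and 98.3 CPM in KO (log2 −0.13 ± 0.12), values separated by less than the spread of the WT pair. Pim2 (ENSMUSG00000031155), which lies on the X chromosome, fell into opposite directions like Socs3. It stood at 42.5 and 51.3 CPM in WT and 18.3 and 14.5 CPM in KO spleen, 2.68-fold lower in KO (log2 −1.42 ± 0.24). In thymic γδ T cells it stood at 20.9 and 21.7 CPM in WT and 37.8 and 59.5 CPM in KO, 2.5-fold higher in KO (log2 1.32 ± 0.24). DN1-DN3 cells held 3.58 and 3.37 CPM in WT and 12.1 and 7.84 CPM in KO, 2.84-fold higher in KO (log2 1.51 ± 0.26).

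**Figure D2:**
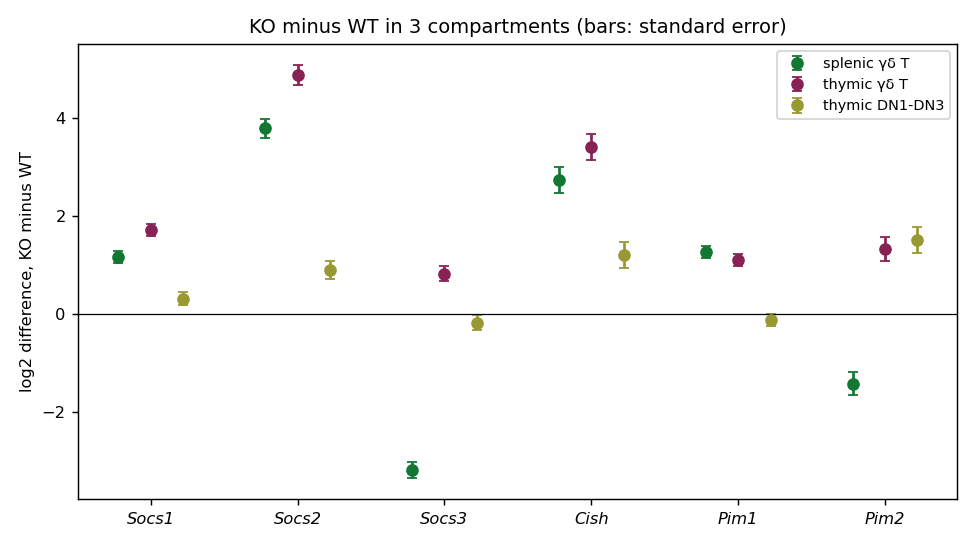
Fitted log2 difference, KO minus WT, of the 6 genes in splenic γδ T, thymic γδ T and thymic DN1-DN3 cells, with bars for the standard error (n = 2 libraries per genotype). Socs3 stands at −3.18 in spleen and 0.82 in thymic γδ T cells, Pim2 at −1.42 and 1.32, and the other 4 genes lie above 0 in both.

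The second question was how far the splenic and thymic γδ T differences stood apart. The splenic minus thymic difference was −4.00 ± 0.23 on the log2 scale for Socs3 and −2.75 ± 0.34 for Pim2. It was −1.09 ± 0.26 for Socs2, −0.66 ± 0.36 for Cish, −0.55 ± 0.18 for Socs1 and 0.15 ± 0.17 for Pim1. For Pim1 this is within 1 SE of 0, and it was −0.01 without WT splenic library 1. Because the contrast was part of how the genes were chosen, the numbers describe its size only. The median over the 6 genes was −0.87, beside −0.05 over all genes tested. Spleen and thymus differed in more than tissue, since Xist, transcribed from the inactive X chromosome of female cells, was at 0.374 CPM or less in the 4 splenic libraries and at 739 to 1600 CPM in the 8 thymic libraries. Tissue and this difference between the animals cannot be told apart.

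Compartments were also compared within a genotype. The choice of the genes had the levels of these same libraries in view, so these differences too are descriptions with no test. Between WT thymic γδ T and WT DN1-DN3 cells, which came from the same mice, Pim2 was 6.23-fold higher in γδ T cells (log2 2.64 ± 0.26 SE). Socs2 was 5.18-fold lower there (log2 −2.37 ± 0.20) and Pim1 1.84-fold lower (log2 −0.88 ± 0.12). Socs1 (log2 −0.44 ± 0.13) and Socs3 (log2 −0.52 ± 0.15) were lower by less. Cish stood within 1 SE of 0 (log2 −0.13 ± 0.26), and its WT values overlapped between the compartments.

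In KO cells all 6 genes were higher in thymic γδ T than in DN1-DN3 cells. Pim2 was 5.48-fold higher (log2 2.45 ± 0.25 SE), Cish 4.18-fold (log2 2.06 ± 0.26), Socs2 3.02-fold (log2 1.60 ± 0.17) and Socs1 1.95-fold (log2 0.96 ± 0.13). Socs3 (log2 0.48 ± 0.15) and Pim1 (log2 0.35 ± 0.12) had smaller differences, which were 0.25 and 0.23 without KO thymic γδ T library 2.

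Between the 2 γδ T compartments of WT mice, Socs2 was 5.11-fold higher in spleen (log2 2.35 ± 0.20 SE), Socs3 2.98-fold (log2 1.57 ± 0.15), Pim2 2.33-fold (log2 1.22 ± 0.24) and Pim1 2.16-fold (log2 1.11 ± 0.12). Cish (log2 0.46 ± 0.26) and Socs1 (log2 −0.31 ± 0.13) differed by less. Cycling markers summed to 64.2 to 101 CPM in WT spleen and 1186 to 1468 CPM in WT thymic γδ T cells, and together with Xist this difference cannot be told apart from tissue.

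The third question was how the genes stood within cells led by the same markers, since the make-up of the libraries differed so much. Cells were set apart by a rule on marker genes and not by clustering. A cell was led by a list when it held UMIs of at least 2 of its 5 genes and of more genes of that list than of any of the other lists. Such a class is a range along marker counts, and between 0.514% and 33.1% of the cells in a library were tied between lists. Tied cells, with cells that held UMIs of under 2 genes of every list, make up the cells with no leading list. In spleen the tied cells numbered 1692 and 2678 in WT and 55 and 60 in KO. The cells under 2 genes numbered 215 and 301 in WT and 4 and 17 in KO. The cells led by the γδ T17 list numbered 852 and 873 in WT spleen, 7638 and 11513 in KO spleen, 496 and 552 in WT thymic γδ T cells, 5003 and 6488 in KO thymic γδ T cells, 74 and 79 in WT DN1-DN3 cells and 1810 and 795 in KO DN1-DN3 cells. Trgv6 led 0.84% and 0.991% of Trgv calls in WT thymic γδ T cells and 44.1% and 53.3% in KO ones. The paper found its thymic Trgv6+ cluster only in KO and its Trgv4+ cluster only in WT. A T17-led class thus need not hold the same cells in both genotypes, and how far it does was not tested. All values within classes are descriptions, and nothing is read from the absence of overlap between 2 values and 2. They are CPM over all UMIs of the class, whereas the fitted differences use size factors and leave out ribosomal, mitochondrial and Gm genes. The 2 measures are thus not on one scale. For Pim1 in whole thymic γδ T libraries the fit gave a log2 difference of 1.10, where the CPM of the pools gave 0.87 and 1.08.

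Within cells led by the γδ T17 list Socs3 was lower in KO in all 3 compartments, including thymic γδ T cells, where the sum over the whole library was higher. It stood at 26.1 and 32.0 CPM in WT and 2.35 and 2.54 CPM in KO spleen, 66.3 and 90.0 CPM in WT and 18.7 and 22.6 CPM in KO thymic γδ T cells, and 90.1 and 102 CPM in WT and 16.4 and 12.5 CPM in KO DN1-DN3 cells. The ratios of the means were 11.9-fold, 3.78-fold and 6.63-fold lower in KO, and the WT and KO values overlapped in none. The WT DN1-DN3 value rests on 88 Socs3 UMIs. In WT thymic γδ T cells the T17-led cells were the class with the most Socs3, above the immature-led cells at 6.17 and 8.52 CPM, whereas in KO they stood beside the immature-led cells at 17.5 and 24.1 CPM (43 and 41 UMIs). Immature-led thymic cells thus held 2.83-fold more Socs3 in KO, the opposite direction to T17-led cells of the same libraries. The splenic fall was not seen in every class either, but classes outside the T17-led cells were small in KO spleen. T17-led cells were 97.7% and 98.6% of cells there. No doublet caller was run, and the KO hashtag led in 99.92% and 99.59% of KO splenic cells. The part of doublets or WT cells in these small classes was not tested. In cells led by the list of circulating T cell markers Socs3 stood at 38.6 and 46.9 CPM in WT and 73.0 and 96.7 CPM in KO spleen, 1.98-fold higher in KO on 75 UMIs, and in cells with no leading list at 29.4 and 32.0 CPM in WT and 36.7 and 39.9 CPM in KO, 1.25-fold higher on 39 UMIs. Neither pair overlapped, and type 1 cytotoxic-led cells, with 6 Socs3 UMIs in KO, overlapped.

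Cish and Socs2 were higher in KO within the T17-led cells of all 3 compartments. In DN1-DN3 these made up 1.03% and 1.06% of WT cells, so they do not stand for that compartment. Its other classes, among them DN3-led cells, are not given here. Cish stood at 29.1 and 21.0 CPM in WT and 87.4 and 72.5 CPM in KO spleen, 23.6 and 33.7 CPM in WT and 119 and 125 CPM in KO thymic γδ T cells, and 13.2 and 10.8 CPM in WT and 68.4 and 73.9 CPM in KO DN1-DN3 cells. Socs2 stood at 49.7 and 58.9 CPM in WT and 102 and 119 CPM in KO spleen, 8.76 and 13 CPM in WT and 65.3 and 59.2 CPM in KO thymic γδ T cells, and 19.8 and 10.8 CPM in WT and 56.3 and 64.0 CPM in KO DN1-DN3 cells, where the WT pair held 14 UMIs. The ratio of Socs2 means in spleen was 2.03-fold inside this class, where the fitted difference over whole libraries was 13.8-fold. That ratio holds for this class only, and Socs2 in the other splenic classes is not given here. T17-led cells were 10.9% and 7.82% of the WT splenic cells and held 63.6% and 55.6% of their Socs2 UMIs, but 9.31% and 6.77% of their Socs3 UMIs. Outside the class, immature-led thymic cells held 6.41 and 7.61 CPM of Cish in WT and 6.50 and 8.81 CPM in KO (16 and 15 UMIs), values that overlapped. The other thymic γδ T classes did not overlap. Cish was 2.21-fold higher in KO in cells with no leading list (181 KO UMIs), 2.45-fold higher in cycling-led cells (21 KO UMIs) and 1.29-fold higher in type 1 cytotoxic-led cells (49 KO UMIs), and 1.43-fold lower in circulating-led cells (60 KO UMIs).

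Pim1 did not separate the genotypes in T17-led cells of the spleen, at 247 and 296 CPM in WT and 256 and 285 CPM in KO, and in thymic γδ T cells it was slightly lower in KO, at 161 and 150 CPM in WT against 139 and 137 CPM. Pim2 was lower in KO in the splenic T17-led cells, at 26.7 and 28.4 CPM in WT and 17 and 13.6 CPM in KO, and overlapped in the thymic ones, at 40.4 and 56.7 CPM in WT and 45.3 and 66.9 CPM in KO. Other splenic classes, which were small in KO, did not share the fall. Pim2 was 1.67-fold higher in KO in circulating-led cells (77 KO UMIs) and 1.43-fold higher in type 1 cytotoxic-led cells (26 KO UMIs), both without overlap. It overlapped in cells with no leading list. In the T17-led cells Socs1 was higher in KO in both tissues. It stood at 73.0 and 56.3 CPM against 103 and 93.6 CPM in spleen, and at 137 and 147 CPM against 196 and 228 CPM in thymic γδ T cells. In T17-led DN1-DN3 cells Pim2 stood at 50.6 and 34.6 CPM in WT and 27.2 and 30.1 CPM in KO, 1.48-fold lower by the means on 39 WT UMIs, where the fitted difference over whole libraries was 2.84-fold higher in KO. Pim1 stood there at 61.6 and 58.4 CPM in WT and 105 and 89.6 CPM in KO, 1.62-fold higher on 55 WT UMIs, where the difference over whole libraries was −0.13 on the log2 scale. Socs1 was 1.21-fold higher by the means.

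**Figure D3:**
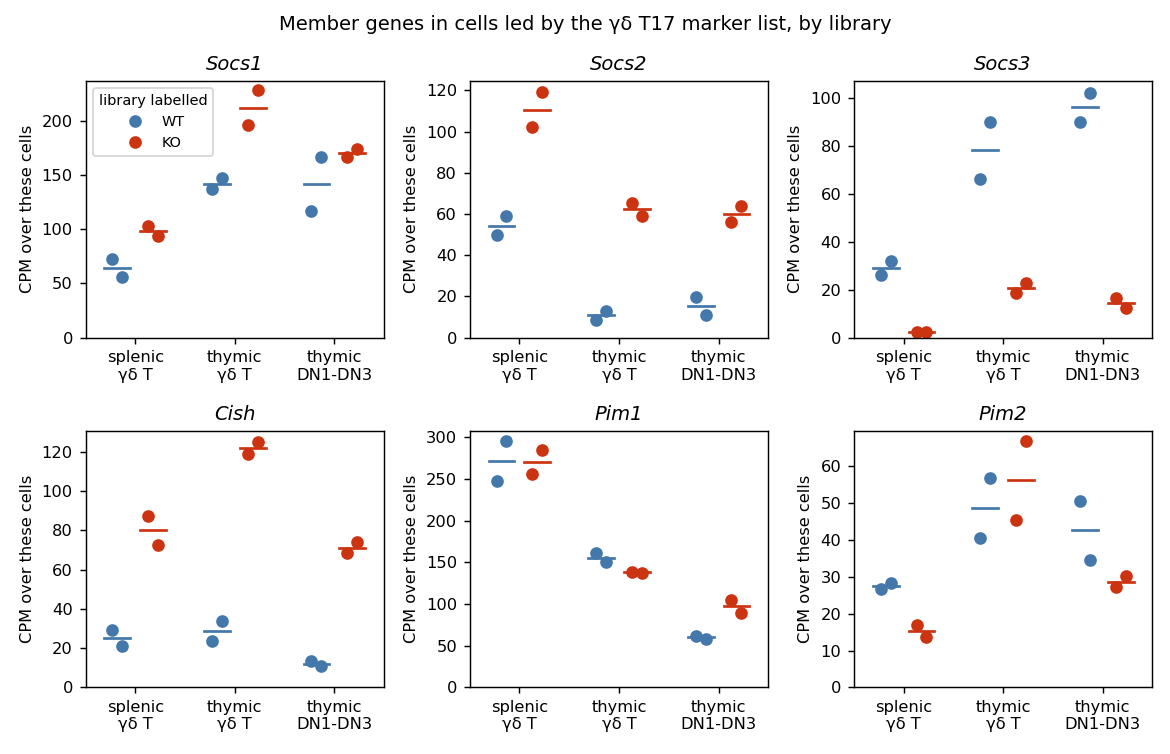
CPM of the 6 genes over the cells led by the γδ T17 marker list in each of the 12 libraries, WT in blue and KO in red, with lines for means of 2. Socs3 sits lower in KO in all 3 compartments, Cish and Socs2 sit higher, and Pim1 in spleen overlaps.

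Cells called Trgv6 gave the same directions as T17-led cells for Socs3, Cish, Socs2 and Socs1 in spleen and thymus, but not the same picture for the PIM genes. In splenic Trgv6 cells Pim2 overlapped between the genotypes, and Pim1 was 1.20-fold higher in KO without overlap. In spleen, 188 and 229 WT cells and 3422 and 4613 KO cells were called. Socs3 stood there at 18.7 and 24.9 CPM in WT and 1.21 and 2.52 CPM in KO, Cish at 17 and 16.4 CPM in WT and 83.9 and 70.0 CPM in KO, and Socs2 at 58.8 and 42.7 CPM in WT and 99.8 and 118 CPM in KO. The paper's own comparison of splenic Trgv6+ cells listed Cish, Socs2 and Socs1 as higher and Socs3 as lower in KO. It drew on the same splenic libraries, so it adds no further sample. Thymic γδ T cells gave 41 and 57 WT cells and 2028 and 2691 KO cells, with Socs3 at 24.0 and 66.7 CPM in WT and 17.9 and 21.9 CPM in KO. Those WT values rest on 7 and 25 Socs3 UMIs and are wide apart, and with at least 2 Trgv6 UMIs asked of a cell the WT and KO values overlapped (1.20-fold lower in KO). Cells called for another Trgv gene held the whole-library directions, since Socs3 was 6.40-fold lower in KO spleen and 1.64-fold higher in KO thymic γδ T cells there. That class is not 1 kind of cell, since T17-led cells were 97.7% and 98.6% of all KO splenic cells and 10.9% and 7.82% of the WT ones.

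The fourth question was how other parts of the pathway stood, for 58 genes in 7 lists, none of them among the 6. Of these, 18 were higher and 26 lower in KO spleen, 26 higher and 14 lower in KO thymic γδ T cells, and 22 higher and 1 lower in KO DN1-DN3 cells, by the edgeR quasi-likelihood test at an adjusted p under 0.05. Of all genes tested, 28.6% were called higher and 26.1% lower in spleen, 26.1% higher and 23.7% lower in thymic γδ T cells, and 15.2% higher and 7.73% lower in DN1-DN3 cells. The counts here and those per list below are to be read against these shares. The lists were chosen with earlier results of these data known, and some genes were named after their values were seen. The counts, medians and adjusted p-values of these genes thus describe the differences and are no independent test. Whichever of the libraries compared was left out, fewer genes were called higher in spleen, and fewer in either direction in thymic γδ T cells. The count in DN1-DN3 cells depended on the fit, and was 12 higher and 0 lower with only the 4 libraries of that compartment and 10, 12 and 13 higher without WT library 1, WT library 2 and KO library 1 of that compartment. The lower gene, Stat5a, was lost without WT library 1, and 3 genes were called lower without KO library 2. The test of the splenic minus thymic difference called 4 genes with a higher and 30 with a lower splenic difference, beside 13.7% and 15.9% of all genes, and the count of lower ones was 18 without WT thymic γδ T library 1. The median splenic minus thymic difference was −0.56 over the 58 genes beside −0.05 over all genes.

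Of the 30 pathway genes with a lower splenic difference 14 were receptor chains, of 19 measured. In KO spleen 5 receptor chains rose and 11 fell. Marker lists moved with the splenic libraries, with the type 1 cytotoxic list at 3211 to 3501 CPM in WT and 231 to 298 CPM in KO, the circulating T cell list at 1651 to 1769 and 232 to 249 CPM and the γδ T17 list at 662 to 668 and 7444 to 7922 CPM, and their part in the splenic pathway differences was not tested. Il6st, which encodes gp130, stood at 117 and 123 CPM in WT and 5.34 and 4.79 CPM in KO spleen, and fell 22.2-fold (log2 −4.47 ± 0.15 SE, adjusted p = 3.4e-08). Its splenic minus thymic difference was −2.88 ± 0.19 (adjusted p = 1.5e-05), and that of Il6ra, the IL-6 binding chain, was −4.18 ± 0.44 (adjusted p = 0.00018), with 31.2 and 34.8 CPM in WT and 3.61 and 2.39 CPM in KO spleen. Il10ra, the ligand-binding chain for IL-10, fell 19.3-fold in KO spleen, from 25.6 and 32.5 CPM to 1.52 and 1.32 CPM (adjusted p = 1.4e-07). Among the chains that rose in KO spleen, Il2ra, the high-affinity IL-2 receptor chain, rose 7.52-fold from 25.3 and 21.4 CPM to 169 and 158 CPM (adjusted p = 8.5e-06). Il12rb1, a chain shared by the IL-12 and IL-23 receptors, also rose 7.52-fold there (adjusted p = 1.2e-05), and Il23r, the IL-23 receptor, rose 3.53-fold (adjusted p = 0.013), a call lost without WT splenic library 1 (adjusted p = 0.063), without WT splenic library 2 (adjusted p = 0.078) or with no filter on low counts (adjusted p = 0.071). Within splenic Trgv6+ cells the paper's own KO to WT comparison listed Il23r as lower in KO, the opposite direction to the sum over the library. It listed Il2ra and Il12rb1 as higher in KO, by much less than the sums here. Other receptor chains for common γ chain cytokines went both ways in KO spleen. Il2rb fell 2.34-fold, from 322 and 326 CPM to 140 and 119 CPM (adjusted p = 0.0014), and Il21r fell 4.63-fold (adjusted p = 1.4e-06). Il2rg rose 1.6-fold (adjusted p = 0.0053). In thymic γδ T cells 10 receptor chains rose and 7 fell. The rises were led by Il23r, at 24.5-fold from 22.6 and 27.5 CPM to 401 and 719 CPM (adjusted p = 0.00014). Il2ra followed, at 6.05-fold from 17.5 and 28.4 CPM to 111 and 144 CPM (adjusted p = 2.9e-05). Marker lists moved with the thymic γδ T libraries too, with cycling markers at 1186 to 1468 CPM in WT and 277 to 336 CPM in KO. The circulating T cell list stood at 1824 to 1991 and 345 to 531 CPM, and the immature γδ list at 2374 to 2549 and 555 to 686 CPM. The γδ T17 list went up, from 711 to 842 CPM in WT to 5137 to 5763 CPM in KO. Their part in the thymic differences was not tested. In DN1-DN3 cells 12 receptor chains rose and 0 fell. Among them were Il23r at 9.69-fold (adjusted p = 0.0026) and Il2rb, the chain shared by IL-2 and IL-15 receptors, at 6.58-fold (adjusted p = 9.5e-05). Il23r stood there at 9.61 and 7.51 CPM in WT and 138 and 31.8 CPM in KO, and its log2 difference of 3.28 was 1.94 without KO DN1-DN3 library 1 and 3.92 without KO DN1-DN3 library 2. Il2rb stood at 9.74 and 8.84 CPM in WT and 83.4 and 40.6 CPM in KO. Markers of other cells moved with these libraries, with a type 1 cytotoxic list at 113 to 118 CPM in WT and 276 to 449 CPM in KO DN1-DN3 cells, Trac at 18.8 to 20.7 and 65.6 to 154 CPM and a B cell list at 114 to 121 and 134 to 258 CPM, beside the γδ T17-led shares given above. Their part in the rise of the receptor chains was not tested.

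Among the kinases, 2 of 4 fell and 1 rose in KO spleen. Jak2 fell 2.26-fold there, from 117 and 125 CPM to 47.0 and 53.4 CPM (adjusted p = 0.00014), and Jak1 1.70-fold, from 782 and 867 CPM to 452 and 454 CPM (adjusted p = 0.00024). In thymic γδ T cells 2 rose, Jak3 by 2.56-fold (adjusted p = 0.00078) and Tyk2 by 1.42-fold (adjusted p = 0.0039), and in DN1-DN3 cells Jak1 and Tyk2 rose by 1.34-fold and 1.44-fold (adjusted p = 0.024 and 0.0089), a pair of calls not kept with only the 4 libraries of that compartment (adjusted p = 0.13 and 0.077). Both were also lost without WT DN1-DN3 library 1 (adjusted p = 0.13 and 0.079) or KO DN1-DN3 library 1 (adjusted p = 0.17 and 0.058), and Jak1 without WT DN1-DN3 library 2 (adjusted p = 0.087). Of the 7 STAT genes 4 fell in KO spleen and none rose, while 4 rose and 3 fell in thymic γδ T cells. Stat4, which carries IL-12 signals, fell in both, by 2.48-fold (adjusted p = 4.8e-05) and 1.82-fold (adjusted p = 0.00093). Stat5a also fell in both, by 1.45-fold (adjusted p = 0.00036) and 1.57-fold (adjusted p = 0.00012). So did Stat5b, by 1.24-fold (adjusted p = 0.007) and 1.36-fold (adjusted p = 0.00099). Stat5a was called lower in DN1-DN3 cells by 1.27-fold (adjusted p = 0.014), a call not kept with only those 4 libraries (adjusted p = 0.11), without WT DN1-DN3 library 1 (adjusted p = 0.07) or without KO DN1-DN3 library 1 (adjusted p = 0.079).

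**Figure D4:**
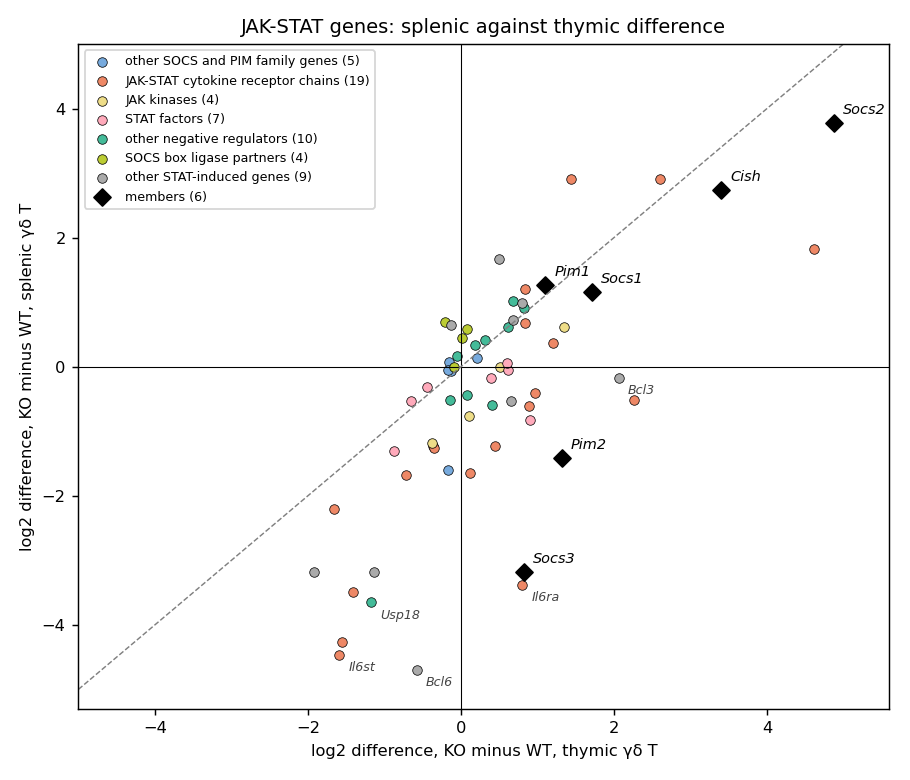
Fitted log2 difference, KO minus WT, in splenic γδ T cells (vertical) against thymic γδ T cells (horizontal) for the 58 pathway genes, coloured by list, and the 6 genes as black diamonds. The dashed line marks equal differences. Both axes rest on separate libraries, and Socs3 lies at 0.82 and −3.18, near Il6ra, below the line.

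Of the other SOCS and PIM family genes 1 of 5 passed the test. Among Socs4, Socs5, Socs6, Socs7 and Pim3, Socs5 fell 3.02-fold in KO spleen, from 27.2 and 25.6 CPM to 8.39 and 7.96 CPM (log2 −1.60 ± 0.12 SE, adjusted p = 2.1e-06), and the other 4 did not pass in any compartment. Among SOCS box ligase partners, Eloc and Elob, which encode the elongins that bind the SOCS box, rose in KO spleen by 1.62-fold (adjusted p = 0.00091) and 1.5-fold (adjusted p = 0.011), and none of the 4 partners passed in thymic γδ T or DN1-DN3 cells. The Elob call was lost without WT splenic library 2 (adjusted p = 0.11) or KO splenic library 1 (adjusted p = 0.067). Of 10 other negative regulators 5 rose and 4 fell in KO spleen. Usp18, which restrains interferon receptor signals, fell 12.5-fold there, from 27.5 and 39.6 CPM to 2.52 and 2.5 CPM (adjusted p = 2.9e-06), and 2.25-fold in thymic γδ T cells (adjusted p = 0.0021). In DN1-DN3 cells it was 1.82-fold higher in KO, from 10.1 and 12.1 CPM to 26.0 and 15.1 CPM (adjusted p = 0.025), a call lost with only the 4 libraries of that compartment (adjusted p = 0.073), with no filter on low counts (adjusted p = 0.059) and without WT library 1, WT library 2 or KO library 1 (adjusted p = 0.16, 0.052 and 0.23), with a log2 difference of 0.48 without the last against 0.87. Pias3, a STAT3 inhibitor, rose 2.03-fold in KO spleen (adjusted p = 0.00037) and 1.6-fold in thymic γδ T cells (adjusted p = 0.0055). Ptpn6, which encodes the phosphatase SHP-1, rose 1.88-fold in KO spleen (adjusted p = 4.2e-05) and 1.77-fold in thymic γδ T cells (adjusted p = 0.00012). In DN1-DN3 cells Ptpn6 rose 1.33-fold (adjusted p = 0.017), a call lost with only the 4 libraries of that compartment (adjusted p = 0.082).

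Further genes known to respond to STAT factors were split. Of 9 listed, 4 rose and 4 fell in KO spleen, and 5 rose and 3 fell in KO thymic γδ T cells. Bcl6, a transcriptional repressor, fell 26.0-fold in spleen, from 51.6 and 50.6 CPM to 1.92 and 1.77 CPM (adjusted p = 2.4e-08), with a splenic minus thymic difference of −4.12 ± 0.17 (adjusted p = 3.1e-06). Bcl2, the survival factor, fell 9.06-fold in spleen, from 446 and 458 CPM to 59.0 and 34.1 CPM (adjusted p = 6.8e-06), and 3.79-fold in thymic γδ T cells (adjusted p = 0.00017). Within splenic Trgv6+ cells the paper listed Bcl6, Bcl2, Jak1, Jak2 and Stat4 as lower in KO, each by less than in the splenic sums here. Bcl3, a nuclear IκB protein, rose 4.16-fold in thymic γδ T cells, from 6.63 and 8.32 CPM to 23.9 and 33.0 CPM (adjusted p = 0.0024). In DN1-DN3 cells Batf, an AP-1 family factor, rose 2.22-fold, from 11.1 and 10.2 CPM to 30.7 and 17.2 CPM (adjusted p = 0.0021). Batf also rose 1.99-fold in KO spleen (adjusted p = 0.0012) and 1.75-fold in thymic γδ T cells (adjusted p = 0.0044).

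Across the 12 libraries Socs2 and Cish followed each other (Pearson r = 0.911 of log2(CPM + 1)), as did Socs2 and Pim1 (r = 0.873), while Socs3 ran against Socs2 (r = −0.500) and Cish (r = −0.444) and Pim2 was near 0 with Pim1 (r = 0.00755). Among 6727 other genes the most alike to Cish were Serpinb1a (r = 0.995), Cep63 (r = 0.992) and Cerk (r = 0.985), and to Socs2 they were Rxylt1 (r = 0.985), Matn2 (r = 0.982) and Rcor3 (r = 0.974). Socs3 was most like Gbp9 (r = 0.945), Bcl6 (r = 0.928) and Zbed5-ps (r = 0.915), Pim2 like Rnf114 (r = 0.977), Ifi203 (r = 0.977) and Smad7 (r = 0.970), Socs1 like Frmd4a (r = 0.978), Igf1r (r = 0.951) and Csgalnact1 (r = 0.947), and Pim1 like Rrp36 (r = 0.971), Dpy19l1 (r = 0.967) and Rbm43 (r = 0.963). The 12 points share genotype, compartment and pool, so these values describe the libraries and carry no p.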

How the data were processed

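Hashed 10x 3′ libraries of splenic γδ T, thymic γδ T and DN1-DN3 cells were measured. The submitters' processing notes name Cell Ranger 8.0.1 and GRCm39. The authors split cells by hashtag (hashsolo), and the deposited matrices hold UMI counts per gene and cell, not normalized. Genotype was taken from the hashtag labels. As in the study, cells under 500 UMIs, under 200 genes or over 20% mitochondrial UMIs were left out (96911 of 97404 barcodes kept), with 9538 ribosomal, mitochondrial and Gm genes. No doublet caller was run here. The WT and KO libraries of a pool shared no barcode, and libraries of different pools shared 5 to 34.

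UMIs were summed per library, and 14921 genes passed filterByExpr. The 12 libraries were fitted as 6 groups with edgeR 4.0.16 in R 4.3.3 (TMM, robust quasi-likelihood test), with Benjamini-Hochberg adjustment over all genes. Tests of the 6 genes between compartments had been planned and are not given, since the genes were chosen with these levels in view. These p-values rest on the spread between the 2 libraries of each group, estimated jointly over all 12 libraries and moderated across genes. An exact two-sided permutation test of 2 against 2 cannot go below 0.33. The code was tested on simulated data. Shares of cells were also given as the share expected after thinning each cell to 2000 UMIs, leaving out shallower cells. The genes and lists were chosen with earlier results of these data known, and the motifs and printed stretches were settled after a first search. Named pathway genes were, per list and comparison, at most the 2 called genes with the largest difference averaging 10 CPM or more. Il6ra, Il2ra, Il12rb1 and Il23r in spleen were added after their values were seen. So were Il2rb, Il21r, Il2rg and Ptpn6 in spleen, Pias3 in thymic γδ T cells, and Stat5a, Stat5b and Batf in both. Recomputed values are not given for this last group. Some genes are not reported here. The most alike genes were the 3 with the highest r of those averaging 20 CPM or more. Alternatives were other size factors, no count filter, DESeq2 1.42.0, the libraries of 1 compartment, a replicate block, other gene and cell filters, and leaving out each library. WT and KO libraries of a pool shared a run, which pairs them. The deviations of their replicates correlated over genes at 0.390 in spleen, 0.0558 in thymic γδ T and 0.283 in DN1-DN3 cells. Thymic γδ T and DN1-DN3 cells came from the same mice, per the series' design text, and their correlations were 0.223 in WT and 0.0368 in KO. RefSeq promoter windows are of GRCm38.p6, and no coordinates were carried between builds.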

Additional observations from a re-analysis of the deposited data

Results flagged for a closer look

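For Socs3 every pool moved down in KO spleen and up in KO thymic γδ T cells, and the 2 differences lay −4.00 apart on the log2 scale. For Pim2 they lay −2.75 apart between spleen and thymic γδ T cells and −2.93 apart between spleen and DN1-DN3 cells, where both pools moved up. Socs3 moved up in both thymic γδ T pools and stood near 0 in DN1-DN3 cells, at −0.05 and −0.31 in the pools (fitted −0.18 ± 0.15 SE, 1.00 apart). Pim1 also stood near 0 in DN1-DN3 cells, at −0.2 and −0.06 in the pools (fitted −0.13 ± 0.12 SE). It moved up in both pools of spleen (1.39 apart) and of thymic γδ T cells (1.23 apart). None of these differences between compartments was tested, since the genes were chosen on them.

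The splenic and thymic γδ T differences also stood apart, by the edgeR quasi-likelihood test of the difference, for 11 named pathway genes. Their lists were chosen with earlier results of these data known, so these calls are no independent test. The splenic minus thymic log2 difference was −4.18 for Il6ra, −4.12 for Bcl6, −2.88 for Il6st, −2.48 for Usp18, −2.22 for Bcl3, −1.42 for Socs5, −0.99 for Sh2b3, −0.86 for Jak1, −0.80 for Jak2, −0.67 for Stat2 and 0.91 for Eloc. The calls for Bcl3, Jak2 and Stat2 were each lost with some single libraries left out, at adjusted p of 0.051 to 0.07 for Bcl3 (without WT splenic 2, KO splenic 2, WT thymic 1 or KO thymic 2), 0.055 to 0.075 for Jak2 (without KO splenic 1, WT splenic 2, WT thymic 1 or 2, or KO thymic 1) and 0.078 to 0.12 for Stat2 (without KO splenic 1, WT splenic 2, WT thymic 1 or 2, or KO thymic 2). The Bcl3 call was also lost with no filter on low counts (adjusted p = 0.07) and the Stat2 call with all genes kept (adjusted p = 0.054).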

How the results depend on the processing

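The 24 KO to WT and splenic minus thymic values of the 6 genes kept within 1 SD between libraries of the reported value in 279 of 306 recomputations, and each value that moved did so with a library left out. Leaving out single libraries gave ranges, on the log2 scale, of 1.10 to 1.37 for Pim1 in spleen. In thymic γδ T cells the ranges were 1.49 to 1.90 for Socs1, 4.66 to 5.13 for Socs2, 0.59 to 1.02 for Socs3, 0.98 to 1.22 for Pim1 and 0.91 to 1.64 for Pim2. In DN1-DN3 cells they were 0.63 to 1.09 for Socs2, 0.66 to 1.56 for Cish and 1.22 to 1.71 for Pim2. For the splenic minus thymic difference they were −0.74 to −0.33 for Socs1, −1.41 to −0.88 for Socs2, −4.19 to −3.77 for Socs3, −0.01 to 0.28 for Pim1, which changed sign without WT splenic library 1, and −3.07 to −2.33 for Pim2. Of the 198 recomputed values between compartments, 180 kept within 1 SD, none changed direction, and those that moved did so with a library left out. The ranges were −2.68 to −2.16 for Socs2 between WT thymic γδ T and DN1-DN3 cells, and between WT spleen and thymic γδ T cells 2.14 to 2.69 for Socs2, 1.47 to 1.75 for Socs3 and 1.00 to 1.27 for Pim1. Between KO thymic γδ T and DN1-DN3 cells they were 0.74 to 1.15 for Socs1, 1.33 to 1.79 for Socs2, 0.25 to 0.68 for Socs3, 1.63 to 2.53 for Cish, 0.23 to 0.47 for Pim1 and 2.04 to 2.78 for Pim2.

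Among pathway genes in DN1-DN3 cells, 22 were called higher and 1 lower, against 12 and 0 with only the 4 libraries of the compartment, and ranges of 10 to 26 higher and 0 to 3 lower with a library left out. The count with a lower splenic difference was 18 to 25 with a library left out. With the replicate block 2 pathway genes were called lower in DN1-DN3 cells, and the block changed no other count of calls by over 1.5 times. Of 624 recomputed values of named pathway genes 580 kept their call and 44 lost it. The cause of these changes was not tested, beyond the smaller number of libraries. Depth limits Socs3 in KO spleen, at 171 and 234 UMIs, and the classes of WT DN1-DN3 and Trgv6 thymic cells, at 7 to 88 Socs3 UMIs.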
